A study of Mus musculus with 10 samples.

Results

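The 6 genes described here encode ligands of the epidermal growth factor receptor (EGFR): epigen (Epgn), betacellulin (Btc), heparin-binding EGF-like growth factor (Hbegf), transforming growth factor alpha (Tgfa), epiregulin (Ereg) and amphiregulin (Areg). They were taken by symbol from the deposited expression tables, and all 6 were among the 9779 genes present in both tables. RNA came from ear skin of c57/Bl6 mice aged 6 to 8 weeks, per the sample labels, and no genetic alteration is named. In the DMSO group (n = 4) the skin was treated with imiquimod, which activates Toll-like receptors and is used in mice as a model of psoriasis, and with the solvent DMSO. In the benzamil group (n = 4) it was treated with imiquimod and with benzamil, a relative of amiloride and an inhibitor of epithelial sodium channels. The untreated group (n = 2) received neither, and treatment lasted 6 days. The untreated control is back skin in the series' design text and ear skin in the sample labels, so a difference of body site cannot be told apart from treatment in comparisons with untreated skin. Imiquimod and its vehicle cannot be told apart there either. No label says that libraries of a group came from separate animals, so the error given is the spread between these libraries, which may be technical.

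EGFR ligands are made as membrane-anchored precursors. Proteases of the ADAM family cut them at the cell surface, and the freed growth factor binds EGFR on the same or on neighbouring cells. Receptor activation passes to the ERK kinases and to STAT3, and it switches on its own inhibitors, such as the ERK phosphatase Dusp6. In epidermis the keratinocytes both make the ligands and carry the receptor, and several ligands are known to be induced in wounded and psoriatic skin. Betacellulin, epiregulin and heparin-binding EGF-like growth factor can also bind the related receptor ErbB4, whereas amphiregulin, epigen and transforming growth factor alpha act mainly through EGFR.

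Epgn, Ereg, Areg and Btc lie next to each other on chromosome 5 of mm10 (GENCODE M21). Epgn (ENSMUSG00000035020.12) spans 91027464 to 91035215, Ereg (ENSMUSG00000029377.6) 91074622 to 91093646 and Areg (ENSMUSG00000029378.6) 91139599 to 91148432, all on the plus strand. Btc (ENSMUSG00000082361.7) spans 91357261 to 91402994 on the minus strand. From the start of Epgn to the start of Btc is 375.53 kb, and the annotation places 4 protein-coding genes in that stretch, the ligands themselves. Tgfa (ENSMUSG00000029999.15) lies on chromosome 6 from 86195223 to 86275719 on the plus strand. The annotation also holds a short antisense transcript over the first bases of Ereg and a transcript model on the opposite strand inside Tgfa. Whether reads were counted by strand is not given in the sources used here, so reads of these cannot be told apart from those of the ligands.

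Of the 6 symbols, 4 matched an entry in the RefSeq promoter table (GRCm38.p6), and Ereg and Hbegf did not. The sequences upstream of Epgn, Areg and Btc are shown because these neighbours take opposite positions in the results below. Epgn and Areg were lower with benzamil than with DMSO, and Btc was higher. Each is written 5′ to 3′ along its gene's strand and ends just before the transcript's annotated start, and capitals mark the motif matches described next. They lie at chr5:91027267-91027463 (plus strand), chr5:91139349-91139598 (plus strand) and chr5:91402995-91403244 (minus strand).
Epgn: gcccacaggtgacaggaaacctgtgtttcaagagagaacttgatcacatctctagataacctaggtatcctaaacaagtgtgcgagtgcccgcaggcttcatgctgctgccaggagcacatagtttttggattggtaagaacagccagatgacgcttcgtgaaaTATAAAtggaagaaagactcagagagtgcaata
Areg: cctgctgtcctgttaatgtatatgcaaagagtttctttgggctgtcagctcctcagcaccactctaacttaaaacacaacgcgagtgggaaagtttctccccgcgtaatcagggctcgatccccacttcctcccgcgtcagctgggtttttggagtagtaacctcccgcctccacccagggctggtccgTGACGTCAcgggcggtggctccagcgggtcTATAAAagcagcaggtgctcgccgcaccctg
Btc: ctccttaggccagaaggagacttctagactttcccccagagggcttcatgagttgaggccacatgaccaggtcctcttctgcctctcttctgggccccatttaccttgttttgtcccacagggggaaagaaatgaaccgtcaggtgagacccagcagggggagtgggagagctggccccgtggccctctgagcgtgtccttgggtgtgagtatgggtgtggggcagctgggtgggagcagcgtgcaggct

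The 250 bases before each RefSeq start were searched on both strands for 3 motifs: TGANTCA, the AP-1 element, TGACGTCA, the cyclic AMP response element, and TATAAA, the TATA box. TATAAA stood on the plus strand of the Epgn sequence from -33 to -28, with -1 as the last printed base, and in Areg from -31 to -26. Areg also held TGACGTCA from -61 to -54, which reads the same on both strands. These letters were not found in the windows of Btc and Tgfa, and no window of the 4 held TGANTCA. Among 32851 RefSeq promoter windows of 250 bases, 12.4% held TATAAA, 1.55% TGACGTCA and 6.75% TGANTCA. These matches describe the letters only.

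Depth was low, at 260207 to 938322 reads per DMSO library, 139204 to 377240 per benzamil library, and 74713 and 71230 in untreated skin. DMSO library 1 was the deepest and the untreated libraries the shallowest. Levels are given as CPM, read counts relative to a library size scaled by the trimmed mean of M values (TMM), and 3 reads corresponded to 38.3 and 42.3 CPM in the untreated libraries. An untreated value of 0 therefore says only that the level lay below such a limit. Ribosomal RNA genes took 22.1% to 28.8% of reads with DMSO, 31.0% to 45.7% with benzamil, and 34.2% and 38.6% in untreated skin. The defining keratins of basal epidermis were present in every library. Krt5 was 3711 to 5050 CPM with DMSO, 2326 to 3463 CPM with benzamil, and 1316 and 2765 CPM in untreated skin. Krt14 was 8615 to 11646 CPM with DMSO, 7549 to 11399 CPM with benzamil, and 4842 and 3540 CPM in untreated skin. Krt5 was thus lower in every benzamil library than in any DMSO library, whereas Krt14 overlapped. Summed with Krt15, the 3 basal markers overlapped as well, at 13066 to 16942 CPM with DMSO and 11508 to 13996 CPM with benzamil. Of these 3, 1 was higher with benzamil than with DMSO in edgeR (adjusted p under 0.05), where 9.91% of all genes were. None, Krt5 included, passed in the lower direction, where 12.1% did.

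Epgn, Tgfa, Hbegf and Areg were lower in imiquimod skin treated with benzamil than in imiquimod skin treated with DMSO, Ereg overlapped between the groups, and Btc was higher. The benzamil group had 20.2 times fewer Epgn transcripts for its depth, 5.92 times fewer of Tgfa and 3.70 times fewer of Hbegf, against 7.72 times more of Btc. Without DMSO library 1 these values were 11.6 for Epgn, 4.97 for Tgfa, 2.53 for Hbegf and 6.44 for Btc. The ligands were proposed with the results of all these comparisons known, so their fold changes are given as a description with no test. In bulk skin, fewer cells of a type and less RNA per cell cannot be told apart. Of the 5 ligands with enough reads for the fit across 5245 genes, 3 passed the threshold (edgeR adjusted p under 0.05) in the lower direction and 1 in the higher direction. Over all genes the threshold was passed by 12.1% in the lower and 9.91% in the higher direction, and nothing is read from the ligands' count.

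**Figure D1:**
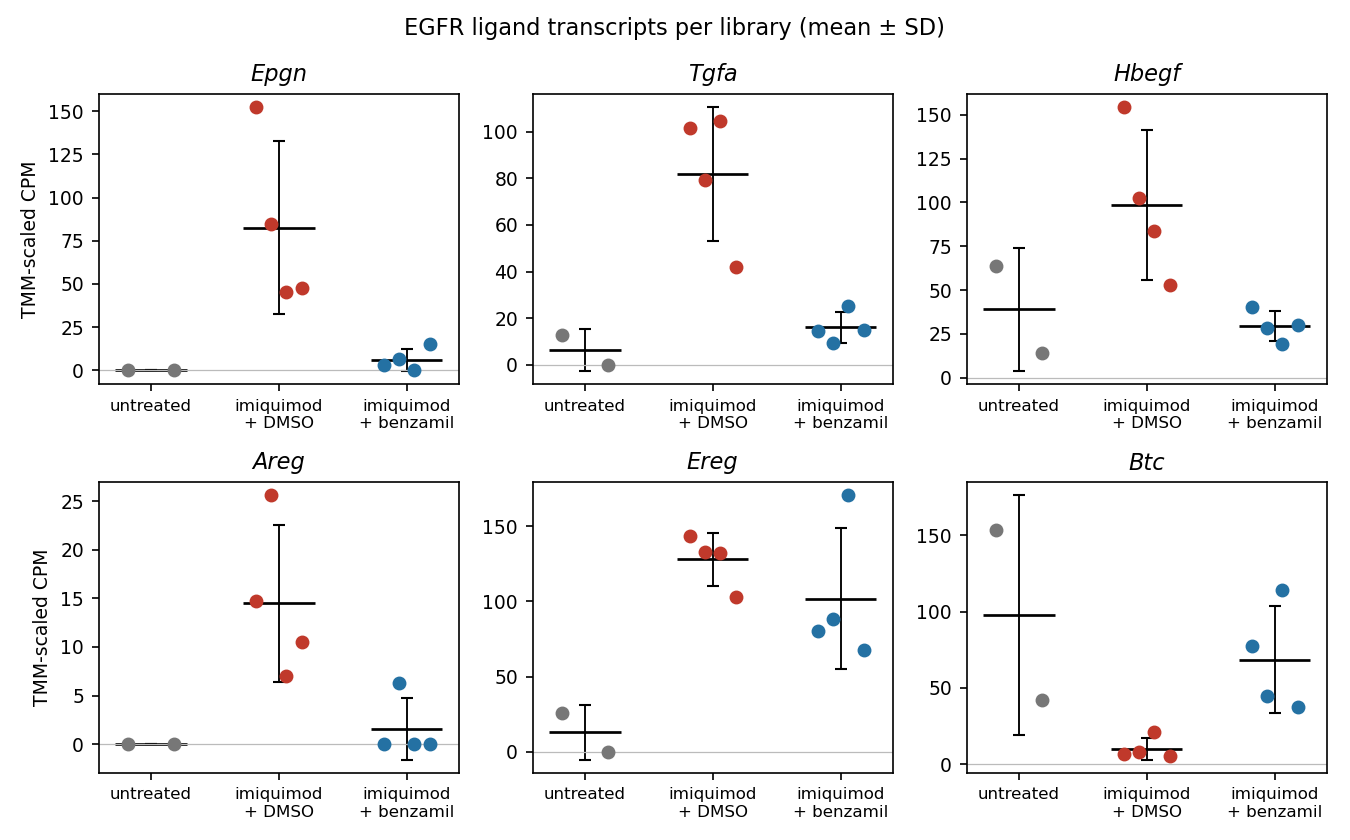
Level of each EGFR ligand in every library (y axis, TMM-scaled CPM, a separate linear scale per gene) in untreated skin (n = 2), imiquimod with DMSO (n = 4) and imiquimod with benzamil (n = 4); points are libraries, long bars group means and error bars the SD. Epgn, Tgfa, Hbegf and Areg are higher in every DMSO library than in any benzamil library, Btc is lower in every DMSO library, and the treated groups overlap for Ereg.

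Epgn, the most recently described member of the family and a ligand of low receptor affinity, had the widest gap of the ligands that were lower with benzamil. Its counts in DMSO libraries 1 to 4 were 155, 33, 13 and 18 reads, or 153, 84.5, 45.3 and 47.4 CPM. The counts in benzamil libraries 1 to 4 were 1, 2, 0 and 2 reads, or 2.87, 6.33, 0 and 15.1 CPM, and both untreated libraries held 0 reads. Every DMSO library was thus above every benzamil library, and DMSO library 1 stood above the other 3 of its group. The group means were 82.5 ± 50.1 CPM with DMSO and 6.07 ± 6.53 CPM with benzamil (SD, n = 4 each). The fitted log2 fold change of Epgn was -4.00 ± 0.60 (approximate standard error), and it ranged from -4.50 to -3.40 when 1 library was left out. The ratio of pooled scaled reads had a 95% counting interval of 8.51 to 62.7, and DMSO library 1 held 155 of the 219 DMSO reads behind it.

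Tgfa, long known as an autocrine growth factor of keratinocytes, held 103, 31, 30 and 16 reads in DMSO libraries 1 to 4, or 101, 79.4, 105 and 42.1 CPM. The benzamil libraries held 5, 3, 4 and 2 reads, or 14.4, 9.50, 25.3 and 15.1 CPM, and the untreated libraries 1 and 0 reads. The highest benzamil value of Tgfa lay below the lowest DMSO value. Its means with DMSO and with benzamil were 81.9 ± 28.8 and 16.1 ± 6.64 CPM, and its log2 fold change was -2.46 ± 0.41 (-2.71 to -2.23 with 1 library left out).

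Hbegf (ENSMUSG00000024486.7) lies on chromosome 18 from 36504927 to 36515805 on the minus strand and encodes a ligand shed at wound edges that promotes keratinocyte migration. It held 157, 40, 24 and 20 reads in the DMSO libraries, or 155, 102, 83.6 and 52.6 CPM. The benzamil libraries held 14, 9, 3 and 4 reads, or 40.2, 28.5, 19.0 and 30.1 CPM, and the untreated libraries 5 and 1 reads, or 63.9 and 14.1 CPM. The treated groups did not overlap, and the benzamil values lay between the 2 untreated values. The means were 98.3 ± 42.8 CPM with DMSO, 29.5 ± 8.71 CPM with benzamil and 39.0 ± 35.2 CPM in untreated skin (SD, n = 2). The log2 fold change of Hbegf with benzamil over DMSO was -1.73 ± 0.36 (-1.95 to -1.35 with 1 library left out).

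Areg, whose overexpression in mouse epidermis is known to give psoriasis-like skin, had the fewest reads and did not pass the filter on low counts. It held 15, 10, 2 and 4 reads with DMSO (14.8, 25.6, 6.97 and 10.5 CPM), 0, 2, 0 and 0 with benzamil (6.33 CPM in library 2), and 0 in both untreated libraries. The lowest DMSO library and the highest benzamil library each held 2 reads, so the separation of these groups is within counting error at that edge. Pooled reads gave a DMSO level 7.14 times that with benzamil, with a counting interval of 1.82 to 61.6. It was 4.54 without benzamil library 1, and at least 3.18-fold without benzamil library 2, which held both benzamil reads. Areg brings to 4 the ligands that were lower in every benzamil library than in any DMSO library, and Btc was the 1 ligand higher in every benzamil library. Of the 5245 tested genes, 13.4% were lower and 11.1% higher without overlap.

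Ereg, a ligand whose loss in mice is known to cause dermatitis, behaved differently. DMSO libraries 1 to 4 held 146, 52, 38 and 39 reads, or 144, 133, 132 and 103 CPM, and benzamil libraries 1 to 4 held 28, 28, 27 and 9 reads, or 80.5, 88.6, 171 and 67.8 CPM. Of the 4 benzamil libraries 3 lay below every DMSO library and benzamil library 3 lay above them all. The means were 128 ± 17.7 and 102 ± 46.7 CPM, and the log2 fold change was -0.38 ± 0.27, or -0.69 without that library. Pooled reads of Ereg gave a DMSO level 1.38 times that with benzamil, with a counting interval of 1.08 to 1.76.

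Btc, a ligand expressed in hair follicle and differentiating epithelium, went the opposite way. It held 7, 3, 6 and 2 reads in the DMSO libraries, or 6.89, 7.68, 20.9 and 5.26 CPM. The benzamil libraries held 27, 14, 18 and 5 reads, or 77.6, 44.3, 114 and 37.6 CPM, and the untreated libraries 12 and 3 reads, or 153 and 42.3 CPM. Every DMSO library was below every other library of the study. The means were 10.2 ± 7.22 CPM with DMSO, 68.4 ± 35.0 CPM with benzamil and 97.8 ± 78.5 CPM in untreated skin. The log2 fold change of Btc with benzamil over DMSO was 2.88 ± 0.46 (2.60 to 3.25 with 1 library left out), and the counting interval of its pooled ratio was 4.52 to 13.8.

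The authors' deposited table gives, on its own scale, log2 fold changes for benzamil over DMSO of -2.35 for Epgn, -1.81 for Tgfa, -1.37 for Hbegf, -1.04 for Areg, -0.34 for Ereg and 2.03 for Btc. For the 5 ligands in the fit above, these are nearer to 0 than the fitted values.

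Against untreated skin, the DMSO group had more Epgn, Tgfa and Ereg and less Btc. Of the 5 ligands tested, 3 passed the threshold in the higher direction, where 9.88% of all genes passed, and 1 in the lower direction, where 8.48% passed. Epgn had 219 reads with DMSO and 0 in untreated skin, which makes it at least 5.25-fold higher against a floor of 3 reads over the untreated group. That bound was 3.01 without DMSO library 1, and 2.5 or 2.76 without untreated library 1 or 2. The ratio for Tgfa, from 180 and 1 reads, was 13.0 (counting interval 2.30 to 514), and that for Ereg, from 275 and 2 reads, was 9.89 (2.71 to 82.1). Without untreated library 2 these ratios were 6.80 and 5.19, and without untreated library 1, which held the untreated reads of both, they became bounds of at least 2.05-fold and at least 3.14-fold. Over all tested genes, 29.3% were higher and 18.7% lower with DMSO than in untreated skin without overlap between the groups. Epgn, Tgfa and Ereg were among the higher and Btc among the lower ones. Hbegf, with 241 reads against 6, overlapped between the groups, and its log2 fold change was 1.36 ± 0.65. The value for Hbegf was 2.97 without untreated library 1 and 0.86 without untreated library 2, the ends of its range with 1 library left out. Areg had 31 reads against 0, but its DMSO level lay under the untreated floor, so no fold is given. Btc had 18 reads against 15 and was 11.6 times higher in untreated skin for the depth (5.43 to 24.3), with a log2 fold change of -3.44 ± 0.69 for DMSO over untreated. Without untreated library 1, which held 12 of those 15 reads, the log2 value for Btc was -2.09, the pooled ratio 4.87, and Btc no longer passed the threshold. Without untreated library 2 the ratio was 17.7. Epgn no longer passed without untreated library 1 either, nor Tgfa without untreated library 2 or in DESeq2.

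Between benzamil and untreated skin, Ereg was higher with benzamil. The comparison shares its libraries with the other 2, so the 3 are not independent. Ereg was the 1 ligand past the threshold, in the higher direction, where 2.44% of all genes passed, and none passed in the lower direction, where 1.6% did. Its 92 reads with benzamil and 2 in untreated skin gave a ratio of 7.19 (counting interval 1.93 to 60.2). It was 3.77 without untreated library 2, and at least 2.28-fold higher without untreated library 1. All 4 benzamil libraries lay above the 25.6 and 0 CPM of untreated skin. Of all tested genes, 19.5% were higher and 12.9% lower in this way without overlap. Ereg did not pass with total counts alone, in DESeq2, with the replicate number as a block, or without benzamil library 3, DMSO library 2 or either untreated library. Btc gave -0.56 ± 0.56 and Hbegf -0.37 ± 0.78, and both turned positive without untreated library 1 (0.78 and 1.23). Epgn had 5 benzamil reads and Areg 2, both under the untreated floor, and the ratio for Tgfa, from 14 and 1 reads, was 2.19 (0.333 to 92.5), or 1.15 without untreated library 2. Without untreated library 1, which held the 1 read, it has no value.

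The make-up of the ligand pool therefore differed between the groups. Each 3′ library gives 1 fragment near the end of a transcript, so reads of the 6 genes were compared without dividing by length. In the DMSO group 964 ligand reads were divided among Ereg (28.5%), Hbegf (25%), Epgn (22.7%), Tgfa (18.7%), Areg (3.22%) and Btc (1.87%). DMSO library 1 held 583 of those reads, and the means of the 4 library shares were 32.2% for Ereg, 23% for Hbegf, 19.7% for Tgfa, 18.9% for Epgn, 3.58% for Areg and 2.58% for Btc. In the benzamil group, of 207 ligand reads, Ereg took 44.4%, Btc 30.9%, Hbegf 14.5%, Tgfa 6.76%, Epgn 2.42% and Areg 0.966%. The Btc share was 1.20%, 1.78%, 5.31% and 2.02% in DMSO libraries 1 to 4, against 36%, 24.1%, 34.6% and 22.7% in benzamil libraries 1 to 4. The exact 95% binomial interval of the group share was 1.11% to 2.94% with DMSO and 24.7% to 37.7% with benzamil, counting error only. In untreated skin Btc took 15 of 24 ligand reads, 62.5% (40.6% to 81.2%), and Hbegf 25%. The summed level of all 6 ligands was 415 ± 129 CPM with DMSO (261 to 574), 223 ± 73.3 CPM with benzamil (166 to 329), and 256 and 56.4 CPM in untreated libraries 1 and 2. The summed levels of the treated groups overlapped, while the Btc shares did not.

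**Figure D2:**
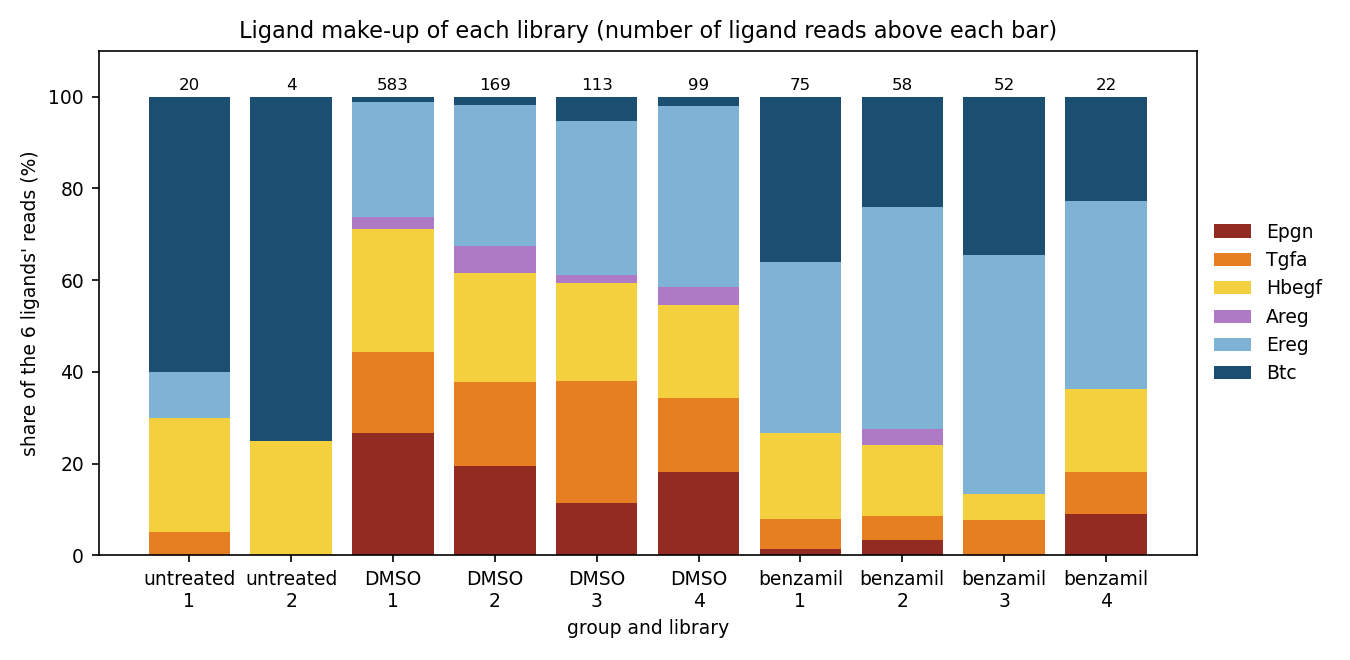
Share of each ligand among the reads of all 6 EGFR ligands (y axis, percent) in each of the 10 libraries (x axis), with the number of ligand reads above each bar. Btc takes 1.20% to 5.31% in the DMSO libraries, 22.7% to 36% in the benzamil libraries, and 60% and 75% in the untreated libraries, which hold 20 and 4 ligand reads.

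In order of mean level, the DMSO group had Ereg first, then Hbegf, Epgn and Tgfa, and after a gap Areg and Btc. Neighbours among the first 4 overlapped between libraries, and the lowest Tgfa library (42.1 CPM) lay above the highest Areg library (25.6 CPM), whereas Areg and Btc overlapped. With benzamil the order was Ereg, Btc, Hbegf, Tgfa, Epgn and Areg, and each neighbouring pair overlapped. In untreated skin Btc came first and Hbegf second, with 15 and 6 reads, and the other 4 ligands had 0 to 2 reads.

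The 4 neighbouring ligands of chromosome 5 did not all differ in the same direction. Epgn and Areg were lower with benzamil, Ereg between them overlapped, and Btc, on the opposite strand at the far end, was higher. Upstream of Epgn, on the same strand, lie Mthfd2l, which encodes a mitochondrial folate enzyme, and the neutrophil-attracting chemokines Cxcl2 and Cxcl1. Cxcl2 had 163 reads with DMSO, 11 with benzamil and 0 in untreated skin, and fell by 2.74 ± 0.58 on the log2 scale with benzamil (edgeR adjusted p = 0.00156). Cxcl1 had 32, 4 and 0 reads and Mthfd2l 21, 5 and 0 in the same order, and neither had enough reads to be tested. These 3 neighbours were chosen by position, with the ligands' values known, and each overlapped between the DMSO and benzamil libraries.

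**Figure D3:**
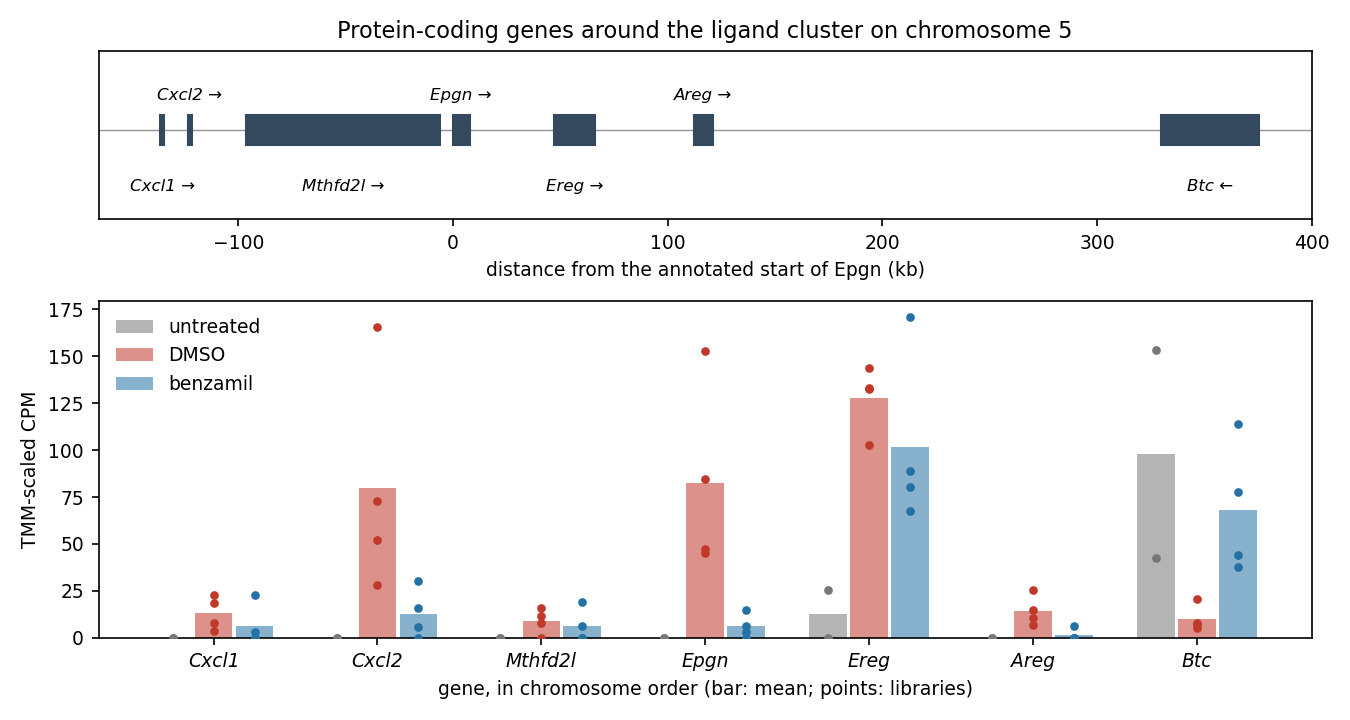
Top, analysed protein-coding genes around the ligand cluster on chromosome 5, drawn to scale against distance from the annotated start of Epgn (kb). Arrows give the strand, and Parm1, beyond Btc, was not among the genes analysed and is not drawn. Bottom, level (y axis, TMM-scaled CPM) of each gene in untreated skin (n = 2), imiquimod with DMSO (n = 4) and imiquimod with benzamil (n = 4), with bars for means and points for libraries. DMSO means exceed benzamil means for every gene shown except Btc, and Cxcl1, Cxcl2, Mthfd2l and Ereg overlap between the treated groups.

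The genes most like each ligand of the fit were found by the root mean square difference in log2 CPM. Values were centred on each gene's mean, over the 10 libraries and 5245 genes. Areg, which did not pass the filter on low counts, was left out. For Epgn they were Lce3b, a late cornified envelope gene (difference 0.34), Csta3, a stefin-family protease inhibitor (0.55), and Sdhd, a succinate dehydrogenase subunit (0.56). Lce3b and Csta3 have near-identical relatives, so their reads may be split. For Tgfa they were the hyaluronan receptor gene Cd44 (0.49), the chemokine Ccl20 (0.52) and the phosphatase subunit Ppp4r1 (0.54). Lce3b, Csta3, Sdhd and Ccl20 shared the untreated mean that 0 reads give, 2.65 log2 CPM. Their likeness to Epgn and Tgfa over the untreated libraries is limited by this floor. For Hbegf they were Gfpt1, the entry enzyme of the hexosamine pathway (0.33), Tpt1 (0.34) and the chloride channel family gene Clic4 (0.34). For Ereg they were the early response gene Ier3 (0.38), Sdr9c7, an enzyme of the epidermal lipid barrier (0.42), and the mitochondrial chaperonin Hspe1 (0.42). For Btc they were the monooxygenase Fmo2 (0.35), the ubiquitin ligase gene Fbxo32 (0.48) and the semaphorin Sema3d (0.48). Among the 5 ligands compared, Hbegf and Tgfa were the most alike (0.72) and Epgn and Btc the least (2.87).

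Some markers of other cells moved with the groups as well. The summed level of the neutrophil markers found (2 of 6, Cxcr2 and Retnlg) was 31.4 to 93.6 CPM with DMSO, 6.32 to 19.0 CPM with benzamil and 0 in untreated skin. The 6 fibroblast markers summed to 367 to 777 CPM with DMSO and 417 to 1220 CPM with benzamil, against 5769 and 13517 CPM in untreated skin. The 6 skeletal muscle markers summed to 134 to 822 CPM, 444 to 1098 CPM, and 1967 and 2102 CPM in the same order. The 4 sebaceous gland markers found, of 5, summed to 1207 to 2530 CPM, 3602 to 6204 CPM, and 5120 and 7244 CPM. The fibroblast, muscle and sebaceous ranges all ran in the order of Btc, lowest with DMSO and highest in untreated skin. For fibroblast and muscle markers the treated groups overlapped in these sums. Of the 6 muscle markers, 5 passed edgeR's threshold as higher with benzamil than with DMSO, where 9.91% of all genes did. None was lower past it, where 12.1% of all genes were. Of the 4 fibroblast markers tested, none passed in either direction. The 4 suprabasal keratinocyte markers summed to 12396 to 27130 CPM with DMSO, 34360 to 48931 CPM with benzamil, and 9620 and 13710 CPM in untreated skin. The T cell markers found (2 of 6) summed to 87.1 to 100 CPM with DMSO, 97.9 to 117 CPM with benzamil, and 153 and 155 CPM in untreated skin, again in the order of Btc. The Langerhans and dendritic cell markers found (4 of 5) summed to 138 to 206, 126 to 248, and 254 and 294 CPM. These lists and those of macrophages and monocytes (4 of 7 found) and mast cells (2 of 5) overlapped between the treated groups. No marker of the hair follicle, endothelial or adipocyte lists was in the joined table. The part of these cells, of depth and of the ribosomal RNA share in the ligands' values was not tested.

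The rest of the EGFR pathway was described from a list of 66 genes ordered by textbook role, of which 55 were in the joined table and 39 had enough reads to be tested. With benzamil over DMSO, 4 of the 39 rose and 8 fell, with a median log2 fold change of -0.29, against -0.01 over all 5245 genes. The threshold was passed by 9.91% of all genes in the higher and 12.1% in the lower direction. At an unadjusted p under 0.05 there were 17 of the 39, and 1851 of all 5245 genes. With scaling by total counts alone, which moved the median of all genes to -0.24, the split was 1 higher and 13 lower. Without DMSO library 1 there were 1 higher and 6 lower.

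Among the receptors, Egfr itself was lower. DMSO libraries 1 to 4 held 82.7, 105, 62.7 and 84.2 CPM and benzamil libraries 1 to 4 held 25.9, 69.6, 12.6 and 22.6 CPM, against 38.3 and 42.3 CPM in untreated skin. Benzamil library 2 reached into the DMSO range and the other 3 lay below it. With benzamil Egfr fell by 1.19 ± 0.34 on the log2 scale (edgeR adjusted p = 0.0148). It was -1.94 without benzamil library 2. The adjusted p in edgeR was 0.0817 without benzamil library 1 and 0.0524 without benzamil library 3. Erbb2, the co-receptor without a ligand of its own, gave 0.58 ± 0.34 (edgeR adjusted p = 0.225) and Erbb3, the kinase-impaired neuregulin receptor, -0.68 ± 0.42 (edgeR adjusted p = 0.261). Of the other ErbB ligands Nrg1, a neuregulin that binds Erbb3, was the 1 measured, with 8, 1, 4 and 7 reads in the DMSO libraries and 0 in every benzamil and untreated library.

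Of 6 tested genes of ligand shedding 2 rose with benzamil and none fell, against 9.91% and 12.1% of all genes. Timp3, the inhibitor of the sheddase Adam17, was 183, 172, 206 and 216 CPM in DMSO libraries 1 to 4 and 354, 355, 354 and 324 CPM in benzamil libraries 1 to 4, with 549 and 592 CPM in untreated skin. The 3 groups did not overlap, and Timp3 rose by 0.85 ± 0.18 (edgeR adjusted p = 0.00178). Adam15 rose by 1.07 ± 0.33 (edgeR adjusted p = 0.0193), a call lost with total counts alone and without benzamil library 3 or 4 or DMSO library 1 or 2. The main ligand sheddases did not pass, with Adam17 at -0.39 ± 0.29 (edgeR adjusted p = 0.349) and Adam10 at -0.0078 ± 0.30 (edgeR adjusted p = 0.99).

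Relay genes moved in both directions. Stat3, the transcription factor that EGFR and cytokine receptors share, was 368 ± 56.8 CPM with DMSO, 138 ± 32.6 CPM with benzamil and 122 ± 27.5 CPM in untreated skin. With benzamil it fell by 1.39 ± 0.21 on the log2 scale (edgeR adjusted p = 5.9e-05), with every benzamil library below every DMSO library. Of 17 tested relay genes 2 rose, where 9.91% of all genes did, Pik3r1, the regulatory subunit of PI3 kinase (0.89 ± 0.27, edgeR adjusted p = 0.0198) and the phospholipase Plcg1 (0.99 ± 0.30, edgeR adjusted p = 0.0202). Both lost their call with total counts alone and without DMSO library 1 or 2, Pik3r1 also without benzamil library 1 or 4 and in DESeq2 and limma, and Plcg1 without benzamil library 3. The kinase Araf gave 0.94 ± 0.36 (edgeR adjusted p = 0.0592).

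Among the feedback inhibitors 2 of 8 tested fell, against 12.1% of all genes. Reads of Dusp6, the ERK phosphatase that ERK activity itself induces, numbered 79, 19, 12 and 13 in the DMSO libraries and 6, 1, 1 and 0 in the benzamil libraries. These are 34.2 to 77.8 CPM against 0 to 17.2 CPM, with no overlap, and 25.6 and 14.1 CPM in untreated skin. Dusp6 fell by 2.66 ± 0.51 on the log2 scale (edgeR adjusted p = 0.000569), the largest decrease of the 39 genes. With 1 library left out it ranged from -3.89, without benzamil library 1, to -2.28, without DMSO library 1. Sh3kbp1, an adaptor of receptor endocytosis, fell by 1.00 ± 0.32 (edgeR adjusted p = 0.0251), a call lost without benzamil library 3 or 4 or DMSO library 1 or 3.

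Of 5 tested target genes of ERK signalling 3 fell with benzamil, against 12.1% of all genes. They were Phlda1, which fell by 1.64 ± 0.42 (edgeR adjusted p = 0.0065), Ier3, which fell by 0.99 ± 0.29 (edgeR adjusted p = 0.0163), and the zinc finger gene Egr3, which fell by 0.94 ± 0.30 (edgeR adjusted p = 0.0252). The mean of Phlda1 dropped from 68.2 ± 22.4 to 26.0 ± 18.7 CPM. All 3 genes overlapped between the DMSO and benzamil libraries. The calls of Dusp6, Phlda1, Stat3 and Timp3 held in 18 of 18 alternatives. Ier3 lost its call without benzamil library 1 or DMSO library 1, and Egr3 without benzamil library 1 or 3 or DMSO library 1 or 3.

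**Figure D4:**
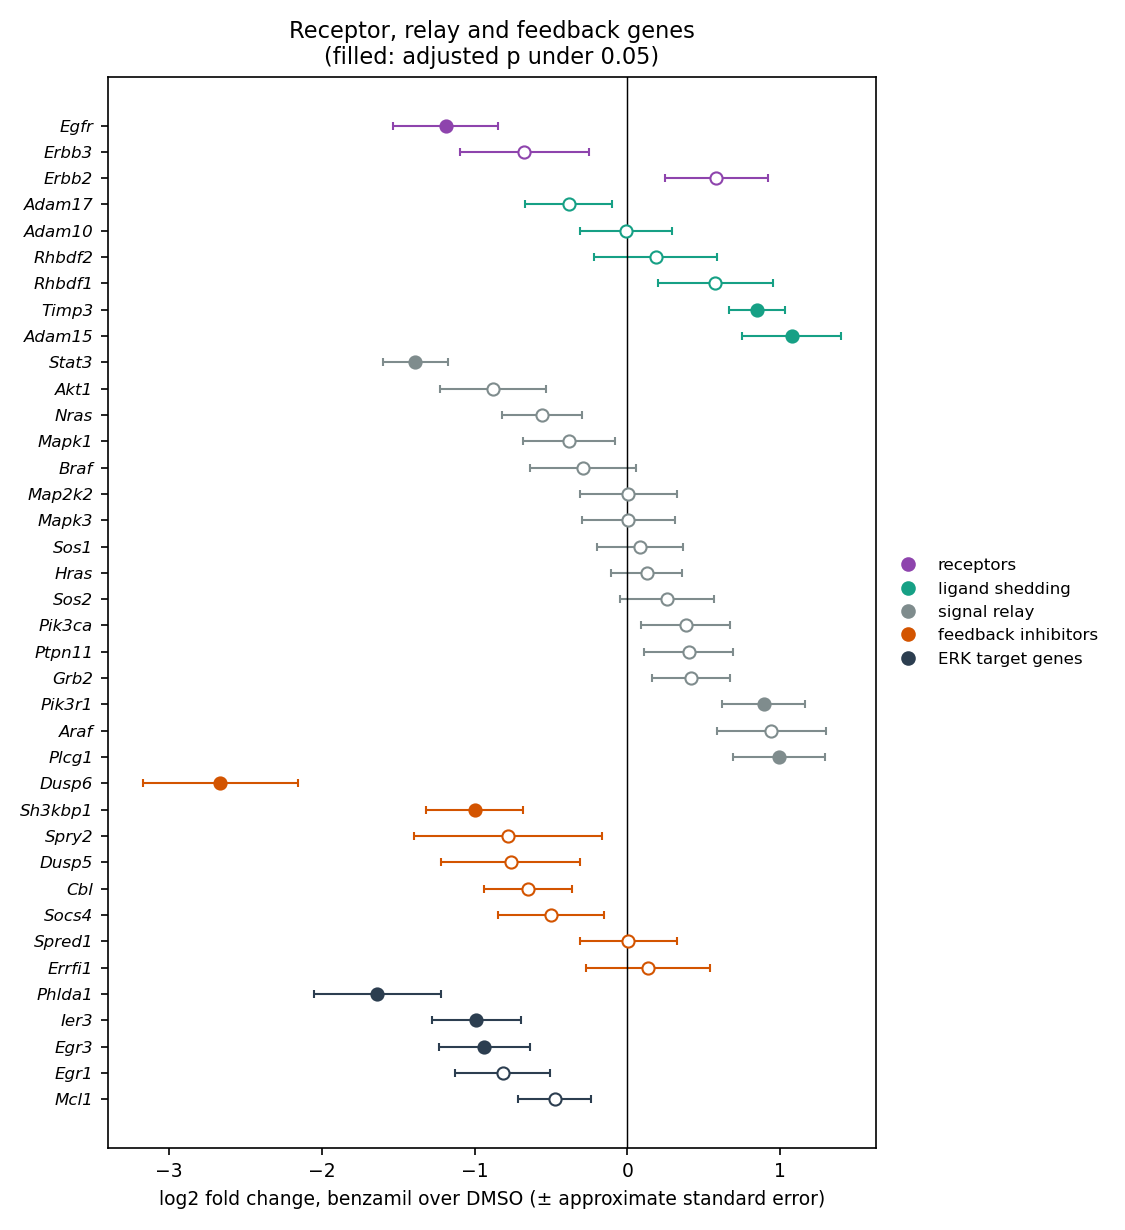
Log2 fold change (x axis, benzamil over DMSO, n = 4 and 4) of 38 tested genes of the EGFR pathway, grouped by role, with error bars for the approximate standard error. Filled points passed edgeR's test (adjusted p under 0.05), 7 to the left of 0 with Dusp6 farthest and 4 to the right of 0.

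Against untreated skin the same list moved both ways in the DMSO group, where 5 of 39 rose and 5 fell, with a median of 0.08 against 0.18 over all genes. Of all genes, 9.88% passed in the higher and 8.48% in the lower direction. Stat3 rose by 1.61 ± 0.35 (edgeR, past the threshold in 18 of 18 alternatives), Egr3 by 1.90 ± 0.65 (edgeR adjusted p = 0.0426) and Sh3kbp1, with 2 untreated reads, had a ratio of 6.40. Ier3 and Adam10, with 1 untreated read each, had ratios of 16.5 (2.93 to 654) and 11.1 (1.96 to 441). The genes that fell were Pik3r1 (-2.91 ± 0.32), Adam15 (-2.10 ± 0.47), Plcg1 (-1.76 ± 0.45), Araf (-1.66 ± 0.56) and Timp3 (-1.56 ± 0.24). Without untreated library 1 the calls of Adam10, Egr3, Araf and Adam15 were lost, and without untreated library 2 those of Sh3kbp1, Egr3, Araf and Plcg1, the last at -0.64. Egr3 was also lost without DMSO library 1, 2 or 3 and with each table fitted alone, and Araf without DMSO library 1, 2 or 4 and without the filter on low counts. Adam10, Ier3, Sh3kbp1 and Egr3 did not pass in DESeq2. Egfr gave 1.06 ± 0.64 and did not pass in edgeR, but passed in limma (0.69, adjusted p = 0.0407). With benzamil over untreated, Pik3r1 was the 1 gene of 39 that passed, where 1.6% of all genes passed in the lower direction, and it fell by 2.02 ± 0.32 on the log2 scale. At an unadjusted p under 0.05 there were 6 of the 39, and 992 of all 5245 genes. The lower fibroblast and muscle markers of treated skin given above moved with these differences, and its part in them was not tested.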

How the data were processed

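Skin RNA of 10 libraries was measured. The 3′ mRNA libraries, made from 500 ng of RNA with molecular identifiers, were read with a 150-cycle kit, per the labels. The submitters' processing notes name mm10, STAR, featureCounts and DESeq2, with no versions in the sources used here. The treatment of reads with equal identifiers is not stated, and intervals and floors cover counting error only.

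The authors deposited log2 values (variance-stabilised, 1 table with benzamil and 1 with untreated libraries, each beside the same DMSO libraries) and result tables with a mean signal, a log2 fold change, a Wald score and p-values. A deposited table of counts with human identifiers was used in no comparison.

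The log2 transform was undone, taking the value that 0 reads give as its anchor, and 100% of values came out whole within 0.001 reads. All 39116 of 39116 DMSO values agreed between the tables. The 9779 shared genes were joined, and 874 and 41 genes of single tables are not analysed here. edgeR 4.0.16 (R 4.3.3) fitted all 10 libraries in its quasi-likelihood test with 1 mean for each group, scaled by TMM, without covariates. After filterByExpr 5245 genes were tested, and the call threshold was 0.05 for the Benjamini-Hochberg adjusted p. The planned test thus ran on recovered reads, and limma 3.58.1 on the deposited log2 values and DESeq2 1.42.0 were alternatives. Fold changes are log2 ± an approximate standard error, its absolute value over the square root of the F statistic. Pooled ratios have exact binomial counting intervals of 95%.

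The ligands and lists were chosen with earlier results of these data known. Named pathway genes are Egfr, Erbb2, Erbb3, Adam10 and Adam17 whatever their values, and each listed gene called in a comparison. Of the listed genes, 1 is counted among those tested but is not reported here by name or value.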

Additional observations from a re-analysis of the deposited data

Results flagged for a closer look

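Within the groups of 4, the highest and lowest library of each named gene was set against the other 3 by Dixon's test at the 95% level. Of 46 groups of values, 4 stood out, and chance gives about 1 in 20. Btc in DMSO library 3 was 20.9 CPM, from 6 reads, against 5.26 to 7.68 CPM in the other DMSO libraries. Areg in benzamil library 2 was 6.33 CPM, from 2 reads, against 0 in the other benzamil libraries. Timp3 in benzamil library 4 was 323.7 CPM against 353.6 to 354.5 CPM in the others. Ier3 in DMSO library 4 was 63.2 CPM against 115 to 124 CPM in the others.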

How the results depend on the processing

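For benzamil over DMSO, 4 ligands passed the threshold under each scaling tried, in DESeq2 and with any 1 library left out. Areg brought them to 5 without the filter on low counts and in limma. The pathway list gave 12 calls (7 to 15 with 1 library left out, 7 without DMSO library 1) and all genes 1154 (650 to 1391, 650 without DMSO library 1). Adam10, at -0.0078, turned to 0.014 with each table alone, and ranged from -0.16 to 0.18 with 1 library left out, positive without benzamil library 4 (0.16), DMSO library 1 (0.18) or DMSO library 2 (0.049).

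For DMSO over untreated, 4 ligands passed (2 to 4 with 1 library left out, 2 without untreated library 1). The pathway list gave 10 calls (6 to 10 with 1 library left out), 6 in DESeq2 and 21 in limma. All genes gave 963 (439 to 980 with 1 library left out, 439 without untreated library 1) and 2910 in limma. Without untreated library 1, Erbb2 turned to 0.34 and Erbb3 to -0.010, the ends of ranges of -0.79 to 0.34 and -0.010 to 6.75 with 1 library left out. The cause was not tested. Leaving out an untreated library leaves 1, which is assumed to vary like the other groups.

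For benzamil over untreated, 1 ligand passed, and 0 with total counts alone, the replicate block or DESeq2 (0 to 1 with 1 library left out). The pathway list gave 1 call, 2 without the filter, and 1 to 2 with 1 library left out. All genes gave 212 (100 to 224, 100 without untreated library 1). Btc ranged from -1.03 to 0.78 and Hbegf from -0.88 to 1.23 with 1 library left out, both positive without untreated library 1. limma was not possible here, since the 2 tables were normalized separately.

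Whether replicate numbers pair libraries across the groups is not known. Deviations of same-numbered DMSO and benzamil libraries correlated at 0.07, 0.00, 0.04 and 0.07, and those of differently numbered ones at -0.13 to 0.17. These values cannot decide it, since the correlation of truly paired libraries is not known. With the replicate number as a block, benzamil over DMSO gave 4 ligands, 12 pathway genes and 1060 genes in all, and DMSO over untreated gave 5 ligands, Hbegf added, 10 pathway genes and 972 genes. Since pairing is not known, the main fit is without this block. Scaling by total counts alone gave 5.13% of genes higher and 18.7% lower for benzamil over DMSO. Depth limits the untreated values most, since 1 to 3 reads decide several of them. Leaving out each library was added for the pooled ratios of the ligands after seeing the data, and the ratios it moved by over 1.5 times are given beside them.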

Other observations

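A further deposited table holds counts for 61533 identifiers, all human and 0 of mouse, although the labels give mouse samples. Its library totals were 8752 to 136930. HBEGF had 38 counts in the DMSO columns, 5 in the benzamil columns and 2 in the untreated columns, TGFA 18, 1 and 0, AREG 5, 1 and 0, and EPGN 2, 0 and 0. BTC and EREG had 0 counts in all of them, where 3 counts are worth 11.1 CPM over the DMSO columns, 25.1 CPM over the benzamil columns and 157 CPM over the untreated columns.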
